A study of Mus musculus with 4 samples.

Results

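The genes described here are those of the matrix metalloproteinases (MMP), of their tissue inhibitors (TIMP), and of the ADAMTS proteases. They were taken by symbol, and 46 of the 23946 listed genes belong to them: 23 MMP genes, 4 TIMP genes, and 19 ADAMTS genes. The RNA came from skeletal stem/progenitor cells, CD51+;CD200+, sorted from the growth plate (GP) of the tibia and from 3 cranial sutures, the posterior frontal (PF), the sagittal (SAG), and the coronal (COR), of wild type CD-1 mice at postnatal day 3. Each tissue gave 1 library from pooled animals, so differences between tissues and between libraries cannot be told apart, and no test is possible. Of the sutures, PF alone closes in young mice, and GP served as the reference. The suture samples were dissected with the bone fronts, dura mater, and periosteum before the cells were sorted. All 4 sorts left out cells with CD105, 6C3, Thy1.1, Thy1.2, Tie2, Ter119, or CD45 on their surface.

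MMPs are zinc-dependent endopeptidases that are made as inactive precursors and cleave collagens and other matrix proteins once the propeptide is removed. Some are secreted and others are held on the cell surface. TIMPs bind the active site of MMPs, and TIMP3 also inhibits several ADAMTS proteases. ADAMTS proteases are secreted and carry thrombospondin repeats; several cleave the proteoglycans aggrecan and versican, and others remove the N-propeptide of procollagen. In the growth plate and in forming bone, MMP13, MMP9, and MMP14 are known for clearing cartilage and collagen matrix.

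Levels are FPKM, fragments scaled by transcript length and library size, so that levels of different genes may be compared within a library. A log2 difference is that of log2(FPKM + 1) between 2 libraries, which understates the difference of low genes, and a gene was counted as different at 3-fold or more on this scale. The libraries differed in depth: an FPKM of 1 over 1 kilobase corresponded to about 17.1 fragments in PF, 31.4 in GP, 33.8 in COR, and 38.2 in SAG. *Itgav* and *Cd200*, the genes of the sorting antigens, were between 6.20 and 62.6 FPKM in the 4 libraries. The genes of the excluded antigens differed in level. *Ptprc*, which encodes CD45, did not exceed 0.568 FPKM, *Thy1* 0.435, and *Tek*, which encodes Tie2, 0.627. *Enpep*, which encodes 6C3, was higher, with 7.05 FPKM in PF, 3.74 in COR, 2.74 in SAG, and 1.39 in GP. CD105 is encoded by *Eng*, which reached 1.70 FPKM in PF and 1.07 in COR, and stayed at or below 0.76 elsewhere. Whether cells with these antigens remained was not tested. Osteoblast and chondrocyte genes were listed well above 1 FPKM. SAG stood apart by its choroid plexus genes. The 7 listed choroid plexus and neural genes summed to 5333 FPKM there and to 483, 156, and 12.4 FPKM in PF, COR, and GP. Most of the SAG sum was *Ttr*, at 5103 FPKM. *Otx2*, *Kcnj13*, and *Folr1* were also highest in SAG, at 168, 23.3, and 33.7 FPKM. Of the neural genes, *Snap25* and *Gfap* were highest in SAG, at 2.21 and 1.01 FPKM, but *Tubb3* was highest in COR, at 10.2 compared with 1.28 in SAG. The part of such cells in the SAG values below was not tested. In bulk samples, fewer cells of a type and less RNA per cell cannot be told apart.

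A cluster of 10 MMP genes lies on chromosome 9 (mm9, 7272514 to 7699585), in a stretch of 427 kilobases. The list of members with a promoter sequence held 32 of the 46, and 8 of the 10 genes of this cluster had the letters TGANTCA, the AP-1 site, within the 250 bases before the start. The same letters were in 6.75% of 32851 promoters, and in no other member with a promoter in the list. The letters TGTGGT, the core of the runt site bound by RUNX factors, were in 4 of the 10 cluster genes, in *Mmp14* and *Mmp23* elsewhere, and in 14.0% of all promoters. The 3 cluster promoters below belong to the cluster genes that reached 1 FPKM. *Mmp14* is shown as a gene outside the cluster without AP-1 letters. The AP-1 letters were also in *Mmp1a*, *Mmp1b*, *Mmp7*, *Mmp12*, and *Mmp20*, which stayed below 1 FPKM in every library. *Mmp23*, at 258 FPKM in COR and 25.5 in SAG, had none. Whether the letters bear on the levels was not tested. The AP-1 letters read alike on both strands. All the promoters shown are on the plus strand, 5′ to 3′, from RefSeq on GRCm38.p6, and end at the base before the start. Capitals mark TGANTCA and TGTGGT, or ACCACA where the latter was read on the other strand.
Mmp13, chr9:7272264-7272513: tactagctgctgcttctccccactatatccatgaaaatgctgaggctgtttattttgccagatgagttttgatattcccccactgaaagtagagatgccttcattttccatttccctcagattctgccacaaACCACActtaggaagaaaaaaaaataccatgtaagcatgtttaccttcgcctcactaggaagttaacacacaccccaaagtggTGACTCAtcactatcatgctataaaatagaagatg
Mmp3, chr9:7445572-7445821: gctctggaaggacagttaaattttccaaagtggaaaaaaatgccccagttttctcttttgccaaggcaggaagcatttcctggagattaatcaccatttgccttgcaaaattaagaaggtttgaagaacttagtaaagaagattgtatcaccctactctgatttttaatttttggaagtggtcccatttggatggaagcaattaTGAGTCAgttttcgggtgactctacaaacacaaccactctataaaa
Mmp10, chr9:7502092-7502341: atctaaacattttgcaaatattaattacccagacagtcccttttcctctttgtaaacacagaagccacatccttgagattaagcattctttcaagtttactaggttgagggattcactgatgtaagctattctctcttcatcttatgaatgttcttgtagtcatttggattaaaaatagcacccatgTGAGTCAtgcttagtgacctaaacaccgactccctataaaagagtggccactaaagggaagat
Mmp14, chr14:54431348-54431597: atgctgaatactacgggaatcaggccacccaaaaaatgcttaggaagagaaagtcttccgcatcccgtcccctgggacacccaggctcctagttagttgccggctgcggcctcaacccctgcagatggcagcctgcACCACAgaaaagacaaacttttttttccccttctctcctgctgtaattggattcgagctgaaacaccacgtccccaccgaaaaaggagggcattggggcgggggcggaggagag
The AP-1 letters began 35 bases before the start in *Mmp13*, 46 in *Mmp3*, and 63 in *Mmp10*, and among the 8 cluster genes between 35 and 95 bases before it. A match of letters is a description of the sequence and no measure of binding.

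Of the 46 members, 24 reached 5 FPKM in some library, 10 were between 1 and 5 FPKM at their highest, and 12 stayed below 1 FPKM everywhere. *Mmp7*, which encodes matrilysin, was listed at 0 in all 4 libraries. The cluster on chromosome 9 was uneven: *Mmp13*, at its end, was above 25 FPKM in every library, *Mmp3* and *Mmp10* reached 1 FPKM in some, and the other 7 genes stayed below 1 FPKM. *Mmp12* and *Mmp1b* overlap there on opposite strands, both at or below 0.777 FPKM. *Mmp8* and *Mmp25*, which encode MMPs of neutrophils, were at or below 0.907 and 0.0622 FPKM. *Mmp21* and *Mmp24* did not exceed 0.0155 and 0.0766 FPKM.

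*Mmp2* and *Mmp14* carried most of the MMP level in each library. *Mmp2*, which encodes gelatinase A, was at 857 FPKM in COR, 777 in GP, 660 in PF, and 491 in SAG. *Mmp14*, which encodes the membrane-bound MT1-MMP that activates pro-MMP2, was at 705 FPKM in COR, 597 in GP, 584 in PF, and 575 in SAG. The highest and lowest libraries were 1.74-fold apart for *Mmp2* and 1.22-fold apart for *Mmp14*. Together they made up 78.1% of the summed MMP FPKM in PF, 70.8% in COR, 60% in SAG, and 59.7% in GP.

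**Figure D1:**
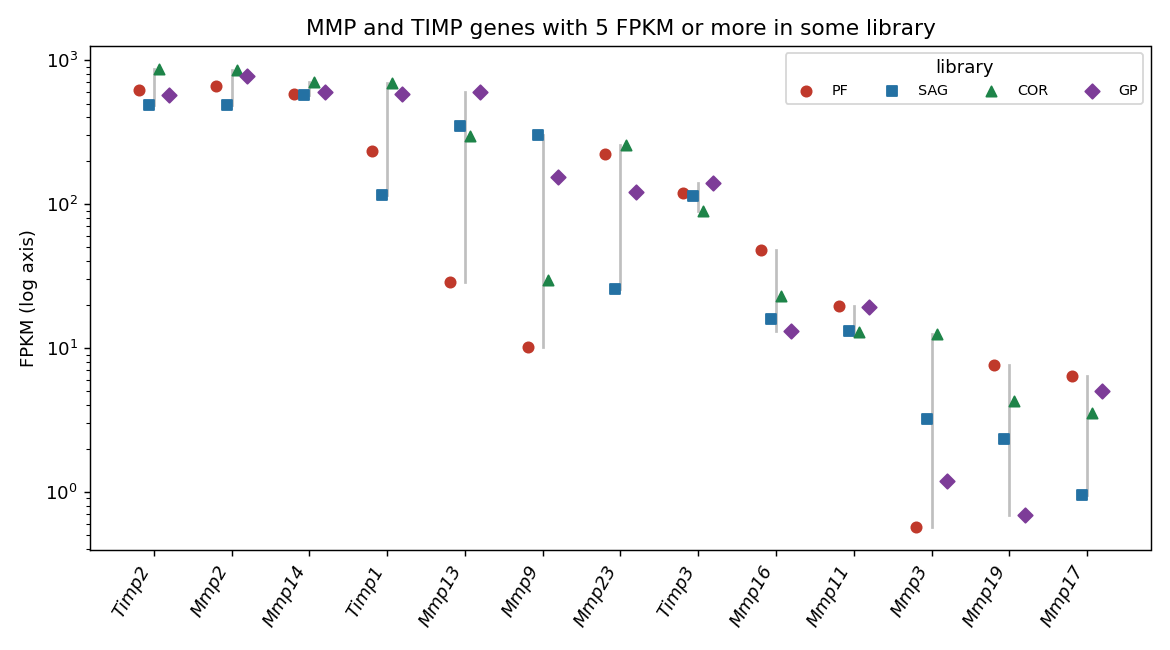
FPKM on a log axis of the 10 MMP genes and 3 TIMP genes with 5 FPKM or more in some library, ordered by their highest value. Each point is 1 library and the grey line spans the 4 libraries; *Mmp14* has the shortest line, and *Mmp13* and *Mmp9* are lowest in PF.

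*Mmp9* and *Mmp13* had the largest log2 differences of all members. *Mmp13*, which encodes collagenase 3 of bone and cartilage, was at 605 FPKM in GP, 346 in SAG, 298 in COR, and 28.9 in PF. PF was thus the low library. Its log2 difference was -3.54 to SAG and -3.32 to COR, and that of GP vs PF was 4.34. The other 3 libraries lay within a log2 difference of 1.02 of each other. *Mmp9*, which encodes gelatinase B, was at 301 FPKM in SAG, 154 in GP, 29.9 in COR, and 10.2 in PF. Here SAG and GP were high and both PF and COR low. The log2 differences were -4.75 for PF vs SAG, -3.29 for COR vs SAG, 3.79 for GP vs PF, and 2.33 for GP vs COR. The PF and COR values of *Mmp9* were 2.92-fold apart in FPKM, with a log2 difference of -1.46 that did not reach 3-fold. *Mmp9* and *Mmp13* together made up 2.46% of the summed MMP FPKM in PF, 14.8% in COR, 33.0% in GP, and 36.4% in SAG.

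Genes of other cell types were read beside *Mmp9* and *Mmp13*. The 7 listed chondrocyte genes were all above 1 FPKM in every library. They summed to 4415 FPKM in SAG, 2482 in GP, 125 in COR, and 124 in PF, high in the libraries where *Mmp9* was high. Most of the SAG sum was *Col2a1*, *Lect1*, and *Matn1*, at 1750, 1094, and 838 FPKM. *Acan*, in the same list, varied less, at 59.0 FPKM in GP, 25.9 in SAG, 23.3 in PF, and 15.6 in COR. The 5 hypertrophic chondrocyte genes summed to 154, 114, 1766, and 1535 FPKM in PF, SAG, COR, and GP, with 4, 3, 5, and 5 of them at 1 FPKM or more. *Ibsp* is in this list and in the osteoblast list, with 1575 FPKM in COR and 761 in GP. *Col10a1*, the defining collagen of hypertrophic chondrocytes, was at 600 FPKM in GP and at 1.44 or less in the sutures. The 7 osteoblast genes, all above 1 FPKM in every library, summed to 3738 FPKM in COR, 1353 in GP, 1197 in PF, and 284 in SAG. The part of these cells in the *Mmp9* and *Mmp13* values was not tested. Neutrophil genes, another known source of *Mmp9*, were near 0: their 7 listed members summed to between 0.765 FPKM in SAG and 3.71 in PF, with at most 1 of them at 1 FPKM, and *Elane* was listed at 0 throughout. Of the 9 osteoclast and macrophage genes, 4 reached 1 FPKM in PF and SAG and 3 in COR and GP, and they summed to 654, 254, 512, and 611 FPKM in PF, SAG, COR, and GP. Most of that sum was *Ctsk*, at 550, 229, 476, and 576 FPKM. In the same library order, *Acp5* read 69.1, 14.3, 30.5, and 27.1 FPKM, and *Lyz2* read 30.2, 7.53, 4.15, and 7.06. *Cd68* read 3.63, 3.01, 0.484, and 0.711 FPKM. *Acp5* and *Lyz2* were more than 3-fold higher in PF than in SAG. By contrast, *Calcr*, *Oscar*, and *Csf1r* stayed at or below 0.797 FPKM with *Calcr* listed at 0 in COR and *Oscar* in PF. The 5 endothelial genes summed to 16.9 FPKM in SAG and to 4.3 or less elsewhere, with 2 of them at 1 FPKM or more in PF and 1 in SAG. Most of the SAG sum was *Kdr*, at 14.9 FPKM. *Tek* was also highest in SAG, at 0.627 FPKM, *Cdh5* and *Pecam1* were highest in PF, at 1.68 and 0.295, and *Emcn* in GP, at 0.738. The part of neutrophils, osteoclasts, macrophages, and endothelial cells in the *Mmp9* and *Mmp13* values was not tested either.

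*Mmp23* was instead lowest in SAG. It encodes a short membrane-anchored MMP, and was at 258 FPKM in COR, 221 in PF, 121 in GP, and 25.5 in SAG. SAG was the low library, by a log2 difference of 3.07 from PF, 3.29 from COR, and 2.21 from GP. *Mmp23* was the third highest MMP gene of PF, with 13.9% of the summed MMP FPKM, and held 1.44% in SAG. *Mmp16*, which encodes the membrane-bound MT3-MMP, was at 48.3 FPKM in PF, 22.9 in COR, 15.9 in SAG, and 13.2 in GP. PF was highest, and passed 3-fold against GP with a log2 difference of -1.79 for GP vs PF. *Mmp17*, which encodes the membrane-anchored MT4-MMP, was at 6.38 FPKM in PF, 5.06 in GP, 3.55 in COR, and 0.944 in SAG, lowest in SAG. *Mmp11*, which encodes stromelysin 3, stayed between 13.0 and 19.7 FPKM in all libraries. It overlaps *Chchd10* on the other strand, which was at 62.2 FPKM in SAG and 14.6 or less elsewhere, so reads of the overlap may belong to either gene.

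The low MMP genes differed as well. *Mmp3*, which encodes stromelysin 1, was at 12.4 FPKM in COR, 3.20 in SAG, 1.19 in GP, and 0.569 in PF, and about 17 fragments stood behind the PF value. COR was the high library, with a log2 difference of -3.10 for PF vs COR, 1.68 for COR vs SAG, and -2.62 for GP vs COR. *Mmp10*, which encodes stromelysin 2, was at 2.67 FPKM in GP, from about 140 fragments, at 0.0857 in SAG, with 0 listed for PF and COR. Thus, within the cluster, *Mmp13* and *Mmp10* had their highest value in GP and *Mmp3* in COR. *Mmp19*, which encodes a secreted MMP outside the cluster, was at 7.59 FPKM in PF, 4.29 in COR, 2.31 in SAG, and 0.689 in GP, with PF and COR at least 3-fold above GP. *Mmp15* and *Mmp28* were between 0.308 and 1.76 FPKM in all libraries.

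Among the inhibitors, *Timp1* varied and *Timp2* and *Timp3* did so by less than 2-fold. *Timp1*, which encodes a soluble inhibitor and lies on chromosome X (mm9, 20447292 to 20451861), was at 696 FPKM in COR, 587 in GP, 233 in PF, and 115 in SAG. COR and GP were high and SAG low, with a log2 difference of 2.59 for COR vs SAG and 2.34 for GP vs SAG; PF vs COR, at -1.58, was just short of 3-fold and passed it, at -1.72, with quantile normalization. *Timp2*, which encodes the inhibitor that also takes part in activation of pro-MMP2 by MT1-MMP, was at 871 FPKM in COR, 622 in PF, 575 in GP, and 489 in SAG. *Timp3*, which encodes a matrix-bound inhibitor, was at 140 FPKM in GP, 119 in PF, 114 in SAG, and 89.5 in COR. *Timp4* was at 1.22 FPKM in GP and at 0.194 or less in the sutures. Of the synapsin genes that overlap *Timp1* and *Timp3* on the other strand, *Syn1* was at or below 1.66 FPKM and *Syn3* at or below 0.538. The FPKM of *Timp2* per FPKM of *Mmp14* stayed between 0.85 in SAG and 1.24 in COR. By contrast, the FPKM of *Timp1* per FPKM of *Mmp9* was 22.7 in PF, 23.3 in COR, 3.80 in GP, and 0.381 in SAG, the library where *Mmp9* exceeded *Timp1*.

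**Figure D2:**
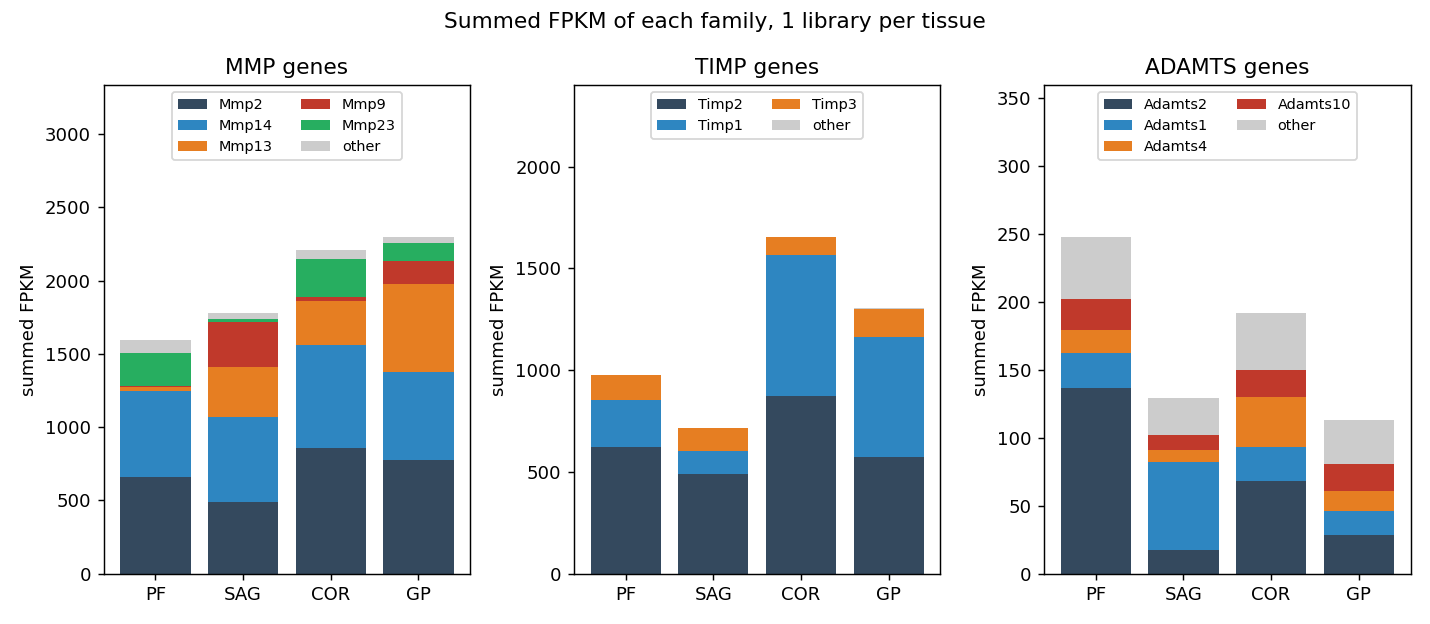
Summed FPKM of the MMP, TIMP, and ADAMTS genes in each library, stacked by gene. The MMP sum ran from 1592 in PF to 2300 in GP and the TIMP sum from 718 in SAG to 1656 in COR, and *Mmp9* and *Mmp13* are thin in PF.

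The MMP genes summed to 2300 FPKM in GP, 2206 in COR, 1777 in SAG, and 1592 in PF. The TIMP genes summed to 1656 FPKM in COR, 1304 in GP, 974 in PF, and 718 in SAG. The MMP FPKM per TIMP FPKM was therefore 2.47 in SAG, 1.76 in GP, 1.63 in PF, and 1.33 in COR. SAG had the highest and COR the lowest value of this ratio. The order of PF and GP depended on *Mmp2* and *Timp2*, the highest genes of the 2 families: without them and *Adamts2* the ratio was 5.61 in SAG, 2.65 in PF, 2.09 in GP, and 1.72 in COR. The sums are of transcripts, and protein, activation, and inhibition were not measured.

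**Figure D3:**
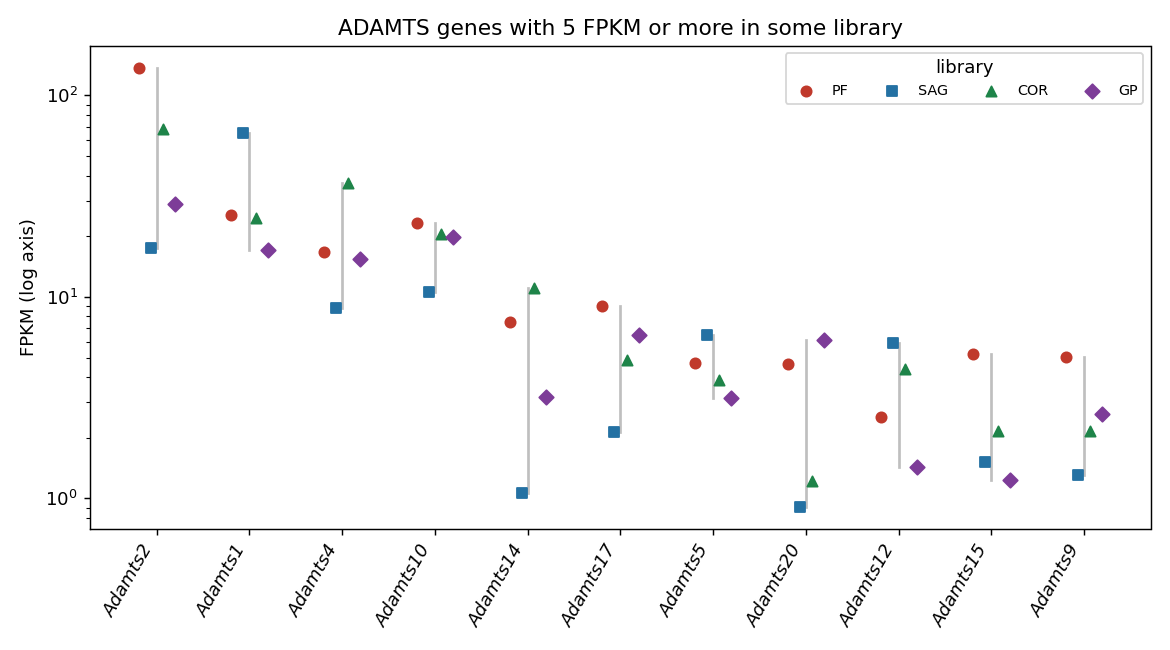
FPKM on a log axis of the 11 ADAMTS genes with 5 FPKM or more in some library, ordered by their highest value. Each point is 1 library; *Adamts2* is highest in PF and lowest in SAG, and *Adamts1* is highest in SAG.

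The ADAMTS genes summed to 248 FPKM in PF, 192 in COR, 129 in SAG, and 113 in GP. The difference between PF and the others lay largely in *Adamts2*, which encodes the main procollagen N-proteinase. *Adamts2* was at 137 FPKM in PF, 68.3 in COR, 28.8 in GP, and 17.4 in SAG, with PF highest and SAG lowest. Its log2 difference was 2.90 for PF vs SAG, 1.91 for COR vs SAG, and -2.21 for GP vs PF. *Adamts14*, which encodes another procollagen N-proteinase, was at 11.1 FPKM in COR, 7.55 in PF, 3.19 in GP, and 1.07 in SAG, and was likewise lowest in SAG. *Adamts3*, the other member of that group, was at 1.60, 3.78, 1.5, and 2.72 FPKM in PF, SAG, COR, and GP, and was highest in SAG, with no comparison at 3-fold.

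The 7 ADAMTS proteoglycanase genes summed to 85.1 FPKM in SAG, 75.5 in COR, 62.5 in PF, and 47.0 in GP. *Adamts1*, which encodes a versican and aggrecan-cleaving protease, was at 65.0 FPKM in SAG, 25.5 in PF, 24.7 in COR, and 17 in GP. SAG was the high library, past 3-fold against GP with a log2 difference of -1.87 for GP vs SAG, and short of 3-fold against PF and COR at -1.31 and -1.36. *Adamts4*, which encodes aggrecanase 1, was at 36.8 FPKM in COR, 16.8 in PF, 15.4 in GP, and 8.76 in SAG, and passed 3-fold for COR vs SAG. *Adamts5*, which encodes aggrecanase 2 and is the neighbour of *Adamts1* on chromosome 16, stayed between 3.17 FPKM in GP and 6.47 in SAG. *Adamts20* was at 6.14 FPKM in GP, 4.65 in PF, 1.22 in COR, and 0.907 in SAG, with GP at least 3-fold above SAG and COR. *Adamts9* and *Adamts15* were highest in PF, at 5.05 and 5.21 FPKM, and *Adamts15* was lowest in GP, at 1.24. *Adamts8*, the neighbour of *Adamts15* on chromosome 9, was highest in COR instead, at 4.61 FPKM, compared with 0.524 in PF, 1.11 in SAG, and 1.41 in GP. The proteoglycanase genes thus did not share 1 high library.

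Of the other ADAMTS genes, *Adamts10*, which encodes a protease linked to fibrillin microfibrils, was at 23.3 FPKM in PF, 20.5 in COR, 19.9 in GP, and 10.6 in SAG. *Adamts17*, which encodes a related protease, was at 9.0 FPKM in PF, 6.5 in GP, 4.85 in COR, and 2.14 in SAG, and passed 3-fold for PF vs SAG. *Adamts12*, which encodes a protease that cleaves cartilage oligomeric matrix protein, was between 1.43 FPKM in GP and 5.88 in SAG. *Adamts18* was at 3.78 FPKM in COR, 0.769 in SAG, 0.286 in GP, and 0.13 in PF, where about 13 fragments stood behind the value. *Adamts6*, *Adamts7*, and *Adamts16* were at or below 1.42, 2.03, and 1.43 FPKM, and *Adamts16* was listed at 0 in COR. *Adamts13* and *Adamts19* stayed below 1 FPKM in all 4 libraries.

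**Figure D4:**
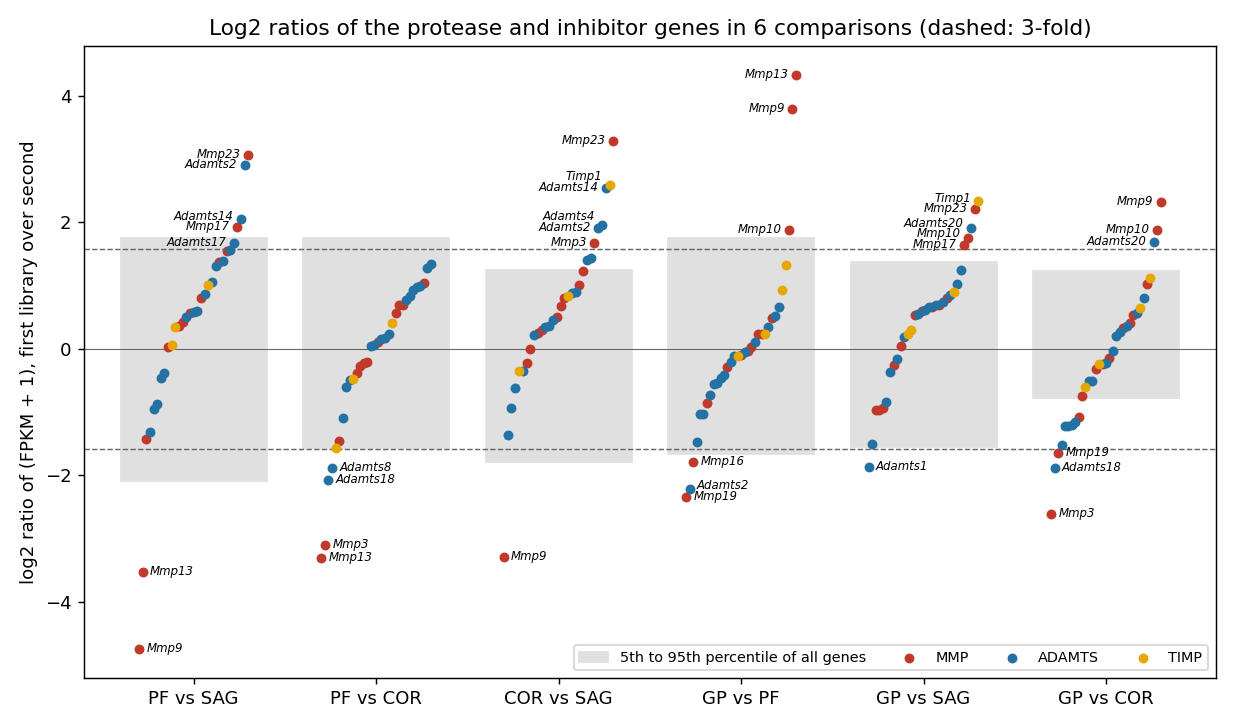
Log2 ratios of (FPKM + 1) of the members that reached 1 FPKM in either library of the pair, sorted within each of 6 comparisons and coloured by family. Grey boxes span the 5th to 95th percentile of all genes in the comparison and dashed lines mark 3-fold. Within PF vs SAG, *Mmp9* and *Mmp13* lie farthest out, at -4.75 and -3.54. Within GP vs PF they are at 3.79 and 4.34.

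A difference of 3-fold or more on the log2(FPKM + 1) scale was then counted in each comparison, without a test, and read beside the share of all genes that passed. PF vs SAG had 7 of 31 members past 3-fold, 5 higher and 2 lower in PF, with 15.7% of all genes past it, 6.64% higher and 9.04% lower. PF vs COR had 4 of 32 members, all lower in PF (*Mmp13*, *Mmp3*, *Adamts18*, and *Adamts8*), with 11.7% of all genes, 6.81% higher and 4.87% lower. COR vs SAG had 7 of 30 members, 6 higher and 1 lower in COR, with 9.25% of all genes, 3.11% higher and 6.15% lower. GP vs PF had 6 of 33 members, with 12.0% of all genes, 6.24% higher and 5.72% lower; *Mmp10*, *Mmp13*, and *Mmp9* were higher and *Adamts2*, *Mmp16*, and *Mmp19* lower in GP. GP vs SAG had 6 of 32 members, with 8.66% of all genes, 3.86% higher and 4.8% lower; *Adamts1* was the 1 member lower in GP. GP vs COR had 6 of 33 members, 3 in each direction, with 4.4% of all genes, 3.2% higher and 1.2% lower. As a share, the members passed at 22.6%, 12.5%, 23.3%, 18.2%, 18.8%, and 18.2% in the order of these comparisons. For PF vs COR this was close to the share of all genes. The other shares rest on 6 or 7 members each, so 1 or 2 genes move them. At a 2-fold threshold GP vs PF was also close, with 10 of 33 members beside 29.1% of all genes. Some libraries enter several comparisons, and the counts are not independent of each other. In any of the 6 comparisons, 17 of the 34 members that reached 1 FPKM passed 3-fold, with 24.7% of all such genes, and 14 of the 24 that reached 5 FPKM, with 24.8%.

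Of 32 members compared among the sutures, *Mmp13* was the 1 at least 3-fold lower in PF than in both SAG and COR, where 2.48% of all genes were so, and no member was at least 3-fold higher in PF than in both, where 3.68% of all genes were so. *Mmp23*, *Adamts2*, and *Adamts14* were lower in SAG than in PF and COR, with 1.03% of all genes, and *Mmp9* was higher, with 3.85%. *Mmp3* was the 1 member higher in COR than in PF and SAG, with 1.12% of all genes, and none was lower, with 0.925%. Against all 3 sutures, *Mmp10* was the 1 member higher in GP, with 0.979% of all genes, and none was lower, with 0.257%.

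The median log2 difference of the members was 0.58 for PF vs SAG, 0.59 for COR vs SAG, and 0.61 for GP vs SAG, while the medians of all genes were 0.03, -0.02, and -0.03. These comparisons share the SAG library. Over all 46 members, low ones included, the medians were 0.35, 0.07, and 0.19. The medians were 0.08 for PF vs COR, -0.10 for GP vs PF, and -0.23 for GP vs COR, with 0.05, -0.03, and -0.02 over all genes. SAG was the lowest library for 16 of the 34 members that reached 1 FPKM in some library, 47.1%, and for 25.2% of all such genes.

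Other genes that act on the same pathway were taken from lists of activators, other inhibitors, ADAMTS-like proteins, and further matrix proteases, 38 genes in all. Past 3-fold were 8 higher and 4 lower in PF of 33 for PF vs SAG, beside 15.7% of all genes, and 1 higher and 3 lower in PF of 33 for PF vs COR, beside 11.7%. For COR vs SAG, 4 were higher and 3 lower in COR of 32, beside 9.25% of all genes. GP had 4 higher and 2 lower of 33 against PF, beside 12.0%, 4 higher and 1 lower of 33 against SAG, beside 8.66%, and 3 higher and 1 lower of 32 against COR, beside 4.4%. Among activators, *Furin*, a proprotein convertase that activates MT1-MMP, stayed between 15.0 and 30.1 FPKM. *Pcsk5*, another convertase, was at 42.6 FPKM in PF, 15.8 in COR, 12.2 in GP, and 7.41 in SAG, and *Pcsk6*, a further one, at 45.6 in COR, 26.4 in GP, 15.4 in PF, and 11.2 in SAG. *Plaur*, the urokinase receptor gene, was at 73.4 FPKM in COR, 34.0 in GP, 10.0 in PF, and 5.05 in SAG, with COR and GP the high libraries as for *Timp1*.

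Among other inhibitors and receptors, *Serpine2*, the gene of protease nexin 1, was at 615 FPKM in GP, 522 in SAG, 162 in PF, and 159 in COR. SAG and GP were thus high for *Serpine2* as for *Mmp9*. *A2m*, the gene of the general protease inhibitor alpha-2-macroglobulin, was at 10.9 FPKM in SAG and at 2.14 or less elsewhere. *Lrp1*, the gene of a receptor that takes up proteases and inhibitors, was at 43.7 FPKM in PF, 23.3 in COR, 17.4 in GP, and 10.6 in SAG. *Bsg*, the gene of the MMP inducer basigin, was between 735 and 1422 FPKM.

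Of the procollagen-processing genes that act beside ADAMTS2, *Pcolce*, the gene of the enhancer of C-propeptide removal, was at 1920 FPKM in PF, 1327 in COR, 1136 in GP, and 298 in SAG, and SAG was low as for *Adamts2*. *Pcolce2* was at 52.3 FPKM in GP, 34.8 in SAG, 5.23 in PF, and 4.30 in COR. *Tll1*, the gene of a tolloid C-proteinase, was at 8.06 FPKM in PF, 3.48 in GP, 2.11 in SAG, and 0.717 in COR. *Fap*, the gene of fibroblast activation protein, was at 82.5 FPKM in COR, 61.8 in GP, 53.3 in SAG, and 11.5 in PF, with PF the low library as for *Mmp13*. *Htra3*, a serine protease gene, was at 393 FPKM in PF, 193 in COR, 180 in GP, and 84.5 in SAG. *Adam12* was at 12.4 FPKM in PF, 9.02 in COR, 3.89 in GP, and 2.90 in SAG. *Adam15* was at 37.0 FPKM in PF, 29.6 in COR, 26.8 in GP, and 11.6 in SAG. Of the ADAMTS-like genes, *Adamtsl1* and *Adamtsl2* were at 6.88 and 6.54 FPKM in PF and at 1.5 and 0.386 in SAG, *Adamtsl5* was at 13.8 in COR and at 2.92 or less elsewhere, and *Adamtsl4* and *Adamtsl3* were highest in GP, at 18.0 and 4.79.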

How the data were processed

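Each tissue gave 1 RNA-seq library of CD51+;CD200+ cells isolated by FACS from pooled CD-1 mice. The cDNA was amplified with an ultra low input kit, and neither the labels nor the methods state that strand was kept. Alignment by the authors was to mm9 with STAR 2.5.1b. They then ran Cuffdiff (Cufflinks 2.2.1) on the Illumina iGenomes annotation, and deposited 1 FPKM per gene symbol and tissue. How Cuffdiff scaled the libraries is not given in the sources used here.

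Members were all symbols of the form Mmp, Timp, or Adamts followed by a number. The members and lists were chosen with earlier results of these data known. Log2 ratios of FPKM + 1 were computed for each gene that reached 1 FPKM in either library of a pair, and a gene was counted as different at 3-fold or more. With 1 library per tissue no test was made. Named were the members with FPKM of 5 or more in some library, and those of 1 to 5 FPKM that passed 3-fold; *Adamts3*, *Adamts6*, *Adamts7*, *Adamts13*, *Adamts16*, *Adamts19*, *Mmp15*, *Mmp21*, *Mmp24*, *Mmp25*, *Mmp28*, *Timp4*, and the other genes of the chromosome 9 cluster are named outside that rule, after their values were seen, as are the sorting, osteoblast, and chondrocyte genes and the overlapping genes. Of the other genes of the pathway, those with FPKM of 5 or more that passed 3-fold were named, together with *Bsg*, *Furin*, and *Adamtsl3*, which were chosen after their values were seen.

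Depth was read from the smallest spacing between values of FPKM times transcript length, over 7735 genes with 1 annotated transcript in the GENCODE annotation of mm9. Numbers of fragments given are FPKM multiplied by the longest transcript and divided by that step; they are approximate and cover no error between animals. Promoters were those of RefSeq (GRCm38.p6), of which the 250 bases before the start were searched on both strands. Python 3.11.15, numpy 2.4.6, pandas 2.3.3, and matplotlib 3.10.9 were used. The counting step was tested on simulated data. The alternatives were another pseudocount, other expression filters, a 2-fold threshold, median-ratio scaling, and quantile normalization. Protein sequences were not analysed here.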

Additional observations from a re-analysis of the deposited data

How the results depend on the processing

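No paired analysis was possible because 1 library stands for each tissue. No member was listed at 0 in 1 library and at 5 FPKM or more in another, so leaving out such genes was not run. Counts of members past 3-fold moved with the pseudocount, the filter, and the threshold, and so did the shares of all genes, given in parentheses. With a pseudocount of 0.1 they were 14 of 31 in place of 7 for PF vs SAG (27.4%), 7 of 32 in place of 4 for PF vs COR (22.8%), 11 of 30 in place of 7 for COR vs SAG (15.8%), and 10 of 33 in place of 6 for GP vs COR (8.26%). At 2-fold they were 16 of 31 for PF vs SAG (34.7%), 10 of 32 for PF vs COR (29.4%), 12 of 30 for COR vs SAG (20.1%), 10 of 33 for GP vs PF (29.1%), and 14 of 33 for GP vs COR (9.95%). Where either library had to reach 5 FPKM, 2 of 21 were left for PF vs COR (10.4%) and 3 of 19 for GP vs COR (4.86%), and with FPKM of 1 or more in both libraries 1 of 27 was left for PF vs COR (5.88%), 3 of 23 for GP vs SAG (4.67%), and 3 of 28 for GP vs COR (2.5%). Quantile normalization turned the PF vs COR median to -0.04 from 0.08; the cause was not tested. Without the highest gene of each family the MMP FPKM per TIMP FPKM was 2.65 in PF and 5.61 in SAG, and the ADAMTS FPKM per TIMP FPKM in SAG was 0.488 in place of 0.18. Of 156 ratios of named members, none changed sign among those past 3-fold, with median-ratio scaling, quantile normalization, or a pseudocount of 0.1; 15 came past 3-fold with the pseudocount of 0.1 and 5 with quantile normalization, *Timp1* for PF vs COR at -1.72 among the latter, and 1 fell short, *Adamts20* for GP vs COR at 1.52 with quantile normalization. PF was the shallowest library, at about 44.7% of the depth of SAG, which limits ratios of genes below 1 FPKM there.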

Other observations

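The listed substrates of these proteases were read beside them. *Acan*, the gene of aggrecan, was at 59.0 FPKM in GP, 25.9 in SAG, 23.3 in PF, and 15.6 in COR, an order other than that of *Adamts4* or *Adamts1*. *Vcan*, the gene of versican, was highest in PF, at 41.8 FPKM, and lowest in GP, at 8.91, with 17.2 in SAG and 14.2 in COR. *Comp*, the gene of cartilage oligomeric matrix protein, was at 587 FPKM in GP, 300 in SAG, 12.3 in PF, and 7.35 in COR, and *Col2a1*, the gene of type II collagen, at 1750 in SAG, 1731 in GP, 35.4 in COR, and 31.4 in PF. *Comp*, *Col2a1*, and *Mmp9* thus had SAG and GP as their higher libraries. *Spp1*, the gene of osteopontin, was at 8324 FPKM in COR, 6882 in GP, 1649 in PF, and 617 in SAG. COR lists *Col3a1*, *Col1a1*, and *Col1a2* at 0, and GP lists *Col1a2* at 0, so these collagen chains were not compared there.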
